A study of Homo sapiens with 8 samples.

Results

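The enzymes and carriers that turn glucose into lactate, deliver pyruvate to mitochondria and lead glucose into glycogen were examined by RNA-seq in cells that carry the label A549, a human non-small cell lung cancer line. The 41 genes were chosen by their function, as members of glycolysis, of the PFKFB family, of lactate and pyruvate handling and of glycogen entry, among the 58735 genes of the count table, and all 41 were found there by name. They were chosen after lower counts of glycolysis genes had been seen in the KRT19 libraries of this same experiment. The difference between the groups was therefore part of the choice, and it is given below as a description and not as a test of the set.

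The EV group held 4 libraries of cells transduced with lentivirus of the empty vector, and the KRT19 group held 4 of cells transduced with lentivirus overexpressing KRT19, the keratin 19 gene of simple epithelia. By the study's methods the introduced KRT19 carried a Flag tag and transduced cells were selected with puromycin, so both groups share transduction and selection. Cells of both groups grew in RPMI-1640 with fetal bovine serum. The sources do not say whether the libraries of a group came from separate transductions or cultures, so p-values measure only the spread between these libraries, which may be technical. In such bulk libraries, fewer cells with a transcript and less of it per cell cannot be told apart.

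Glycolysis splits a molecule of glucose into pyruvate and yields ATP without oxygen. Many tumours run it at a high rate and reduce most of the pyruvate to lactate, which monocarboxylate transporters export. Several steps are catalysed by isozymes from separate genes, and the mixture in use helps set how a step responds to its inhibitors. Pyruvate dehydrogenase, which pyruvate dehydrogenase kinases (PDK) switch off and phosphatases switch on, decides how much pyruvate enters the mitochondrial citrate cycle. Glycogen synthase and branching enzyme store glucose instead.

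Library totals ranged from 14073065 to 17054364 counts, so the floor of 3 counts that 0 counts allow corresponds to 0.176 to 0.213 CPM (counts scaled to a common library size) and covers counting error only. KRT19 itself had 1, 3, 2 and 5 counts in the EV libraries and 5147, 4353, 4923 and 4696 counts in the KRT19 libraries, so all 8 libraries matched their EV or KRT19 group. Of the 8 markers listed for A549, the keratins KRT8 and KRT18 were at 189 to 231 and 274 to 347 CPM. The other 6 were between 0 and 2.75 CPM, among them AKR1C1 at 0.711 to 1.29 CPM and EPCAM at 0 to 0.199 CPM. CDKN2A and MTAP, which A549 cells lack through a deletion, were at 94.2 to 108 and 41.8 to 50.9 CPM. These markers go against the label, and the cells are called here by their label only. The extraction text names retina, of whose listed markers RCVRN had 0 counts in all 8 libraries, CRX at most 1 and PDE6B at most 6, while NRL had 9 to 24 counts. Of the blood and stroma markers, PTPRC had at most 1 count, PECAM1 8 to 24 and COL1A1 21 to 54. KRT19 replicate 3 stood apart from the other KRT19 libraries in many of the genes below, and many values below are also given without it.

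The members together took 3.03% ± 0.108 of all counts in EV libraries and 2.82% ± 0.185 in KRT19 libraries (SD, n = 4). Their levels were compared per kilobase of exon, as RPKM (CPM divided by the length of the merged exons in kilobases). GAPDH, the dehydrogenase in the middle of glycolysis, had the highest level at 3139 ± 152 RPKM in EV and 3020 ± 230 RPKM in KRT19. The enolase gene ENO1 followed at 1021 ± 55.9 and 962 ± 73.4 RPKM, and TPI1, which interconverts the triose phosphates, at 606 ± 40.0 and 559 ± 53.8 RPKM. PGK1, the kinase that makes the first ATP of the pathway, and PKM, the pyruvate kinase that makes the last, were neighbours in this order. PGK1 stood at 476 ± 21.4 RPKM in EV and 389 ± 40.2 RPKM in KRT19, and PKM at 437 ± 19.0 and 423 ± 30.9 RPKM, so that PGK1 ranked 4 and PKM 5 in EV and the reverse in KRT19. PGAM1 (391 ± 6.91 and 355 ± 13.6 RPKM) and LDHA (339 ± 11.8 and 293 ± 25.6 RPKM) came next. These 7 genes held 85.2% of the counts of all members on average. With the longest transcript in place of the merged exons, PKM ranked 3, LDHA 5 and PGK1 7 over all libraries.

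**Figure D1:**
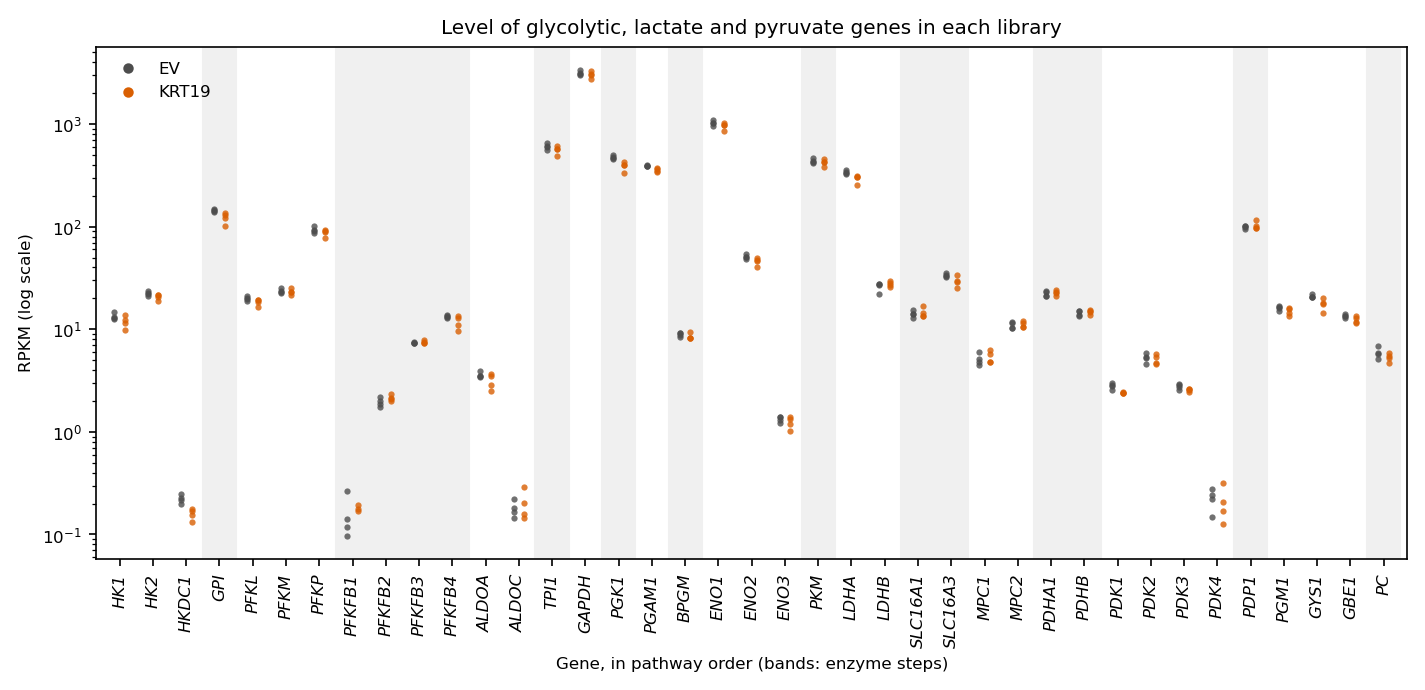
Level of the members in each library, in RPKM on a log scale, in pathway order from hexokinase on the left to gluconeogenesis on the right, with grey bands marking enzyme steps and 1 point per library (dark, EV; orange, KRT19). HK3 and FBP1, at 0 to 1 counts, are not drawn, and a value of 0 for PFKFB1 in KRT19 replicate 2 falls off the axis. GAPDH, with group means of 3139 and 3020 RPKM, and 6 further genes with group means between 293 and 1021 RPKM stand above all others.

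The entry of glucose was far lower in level. HK2, the hexokinase with the highest level, stood at 22.4 ± 1.07 RPKM in EV and 20.7 ± 1.39 RPKM in KRT19. GPI, which converts the product of hexokinase into a fructose phosphate, stood at 143 ± 3.63 and 122 ± 14.3 RPKM, and PFKP, a subunit of phosphofructokinase, at 92.4 ± 6.32 and 87.4 ± 6.73 RPKM. PDP1, the phosphatase that reactivates pyruvate dehydrogenase, was at 99.2 ± 3.11 and 103 ± 8.83 RPKM, against 22.2 ± 1.45 and 22.5 ± 1.24 RPKM for PDHA1, a subunit of its substrate. Its ratio to PDHA1 per kilobase was 4.48 ± 0.362 in EV and 4.61 ± 0.656 in KRT19, and the groups overlapped.

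At the lower end, 4 members had too few counts to be tested, at most 14 in any library. HK3 had 0 counts in all 8 libraries and FBP1, which reverses phosphofructokinase in gluconeogenesis, at most 1, which is below the floor. PFKFB1 and ALDOC had 0.135 to 0.156 and 0.178 to 0.199 RPKM as group means. The remaining 37 members entered the comparison of the groups.

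Aldolase was the step with the lowest leading level, with ALDOA at 3.58 ± 0.229 RPKM in EV and 3.14 ± 0.546 RPKM in KRT19, below each of the other steps from hexokinase to lactate dehydrogenase. A second gene model, AC093512.2, covers 93.8% of the coding sequence of ALDOA on the same strand and itself had only 33 to 55 counts per library. How the counting handled reads that fit more than 1 gene is not stated, so the level of ALDOA here is uncertain and is not read as an aldolase level. The same holds for LDHB, of whose coding sequence AC010197.2 covers 93.5%, with 0 to 1 counts of its own. Of the sampled 75-base words, 60.6% of those of PDK2, 54.6% of LDHB, 48.7% of ALDOA, 39.6% of PGAM1, 21.8% of PDHA1, 16.4% of GAPDH, 15.2% of FBP1, 12.7% of TPI1 and 10.1% of GPI also occur in other annotated genes, and no other member passed 10%. The pseudogenes of GAPDH (62 rows of the table) together had counts equal to at most 0.167% of those of GAPDH itself, those of TPI1 at most 1.02% and those of PGAM1 at most 0.540%.

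Isozyme use was given as the share of a gene in the counts per kilobase of its step, which is free of library scaling. HK2 made up 62.3% ± 0.677 of hexokinase in EV and 63.4% ± 1.68 in KRT19, HK1 37.0% ± 0.674 and 36.2% ± 1.72, and HKDC1 the small rest, and none of these shares separated the groups. With the longest transcript as length the HK2 share over all libraries was 53.1%, so HK1 and HK2 lie closer together under that choice. Phosphofructokinase, the main control point of glycolysis, was led by the platelet type PFKP at 67.9% ± 0.404 and 67.8% ± 0.603. The muscle type PFKM had 17.4% ± 0.277 and 18.0% ± 0.539, and the liver type PFKL 14.7% ± 0.177 and 14.3% ± 0.231. The mixture of phosphofructokinase thus shifted by less than 1 percentage point between the groups, and in all 3 genes the groups overlapped.

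The PFKFB enzymes make and break the fructose bisphosphate that activates phosphofructokinase. PFKFB4 led with 58.4% ± 0.839 in EV and 54.1% ± 3.77 in KRT19, followed by PFKFB3, the form with the strongest kinase activity, at 32.3% ± 0.40 and 35.3% ± 2.75, and PFKFB2 at 8.53% ± 0.909 and 9.96% ± 0.903. The PFKFB4 share was 58.4%, 55.6%, 49.6% and 52.9% in KRT19 replicates 1 to 4 against 57.6% to 59.2% in EV, so KRT19 replicate 1 lay within the EV range. The difference in share was -4.33 percentage points with all libraries and -2.82 without KRT19 replicate 3. Of the enolases, ENO1 held 95.1% ± 0.0526 and 95.3% ± 0.0525, and the neuronal type ENO2 4.77% ± 0.0405 and 4.55% ± 0.0720. This shift was small, but the ENO2 share was 4.81%, 4.76%, 4.72% and 4.78% in the EV libraries and 4.57%, 4.58%, 4.45% and 4.61% in the KRT19 libraries, with no overlap.

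LDHA and LDHB encode the subunits of lactate dehydrogenase, LDHA favouring lactate formation and LDHB the return to pyruvate. LDHA held 93.9%, 92.5%, 92.8% and 92.3% of the step in the EV libraries and 92.3%, 91.9%, 89.7% and 91.5% in the KRT19 libraries. The groups did not overlap but touched, with 92.30% as the lowest EV share and 92.29% as the highest KRT19 share. The ratio of LDHA to LDHB per kilobase was 13.1 ± 1.47 in EV and 10.7 ± 1.40 in KRT19 (SD, n = 4 each). The uncertain counts of LDHB enter both values.

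Lactate leaves through SLC16A3, the monocarboxylate transporter of glycolytic cells, and SLC16A1, which carries lactate in both directions. SLC16A3 held 70.3% ± 1.48 in EV and 66.6% ± 4.78 in KRT19, where KRT19 replicate 3 was lowest at 60.0% and the others lay between 66.7% and 71.2%. The difference was -3.72 percentage points with all libraries and -1.51 without KRT19 replicate 3, and the groups overlapped. Of the pyruvate dehydrogenase kinases, PDK2 held 47.6% ± 3.62 and 49.4% ± 2.64, PDK1 25.5% ± 2.11 and 23.7% ± 1.44, PDK3 24.9% ± 1.64 and 25.0% ± 1.95, and PDK4 2.01% ± 0.530 and 1.97% ± 0.704. Which kinase led depended on the length used. By counts without length PDK1 led with 47.8% against 34.9% for PDK2, since its merged exons are long at 14883 bases, and 38.6% of the exons of PDK2 are overlapped by SAMD14 on the other strand. The carrier subunits MPC1 and MPC2, which bring pyruvate into mitochondria as a pair, stood in a ratio of MPC2 to MPC1 of 2.17 ± 0.365 and 2.09 ± 0.307. The pyruvate dehydrogenase subunits PDHA1 and PDHB stood in a ratio of 1.55 ± 0.0289 and 1.54 ± 0.0923.

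**Figure D2:**
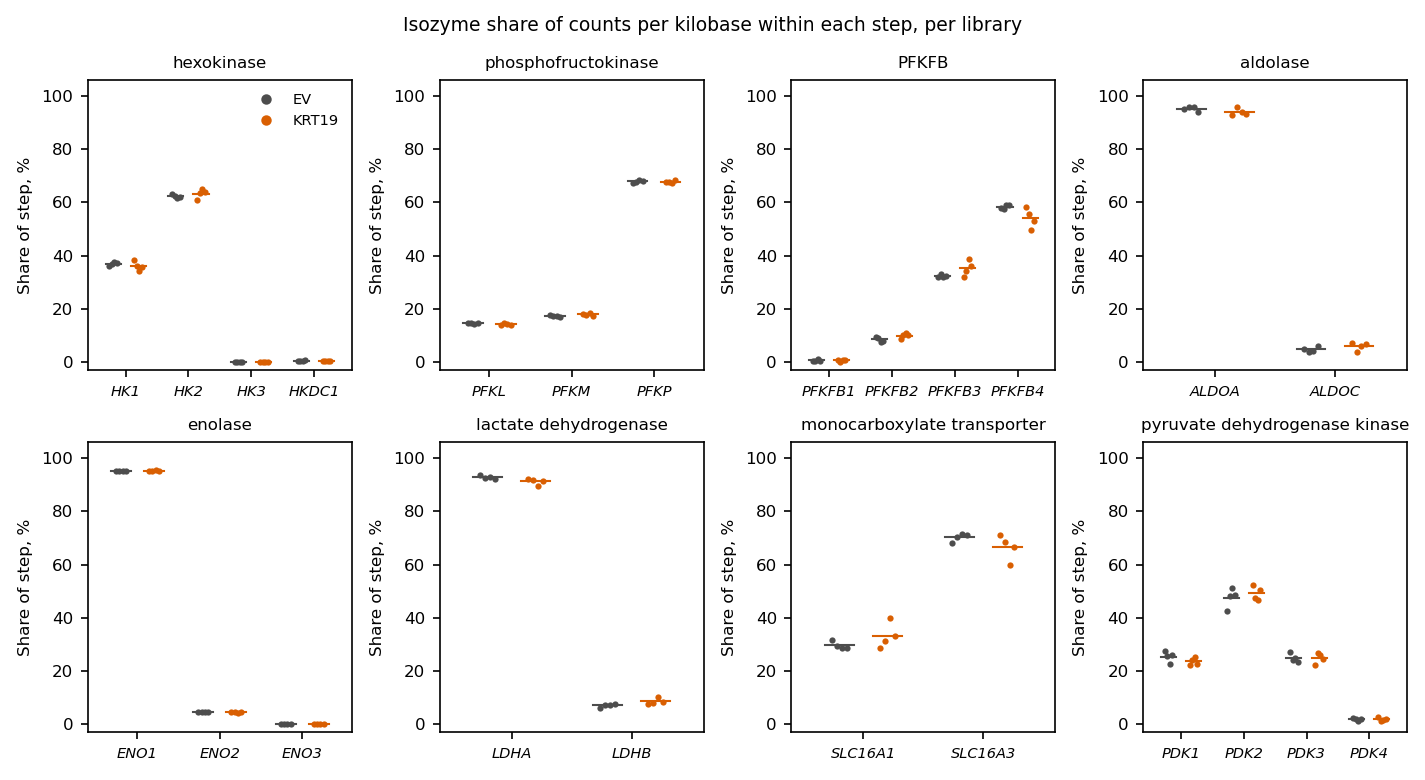
Share of each isozyme in the counts per kilobase of its step, in percent, with 1 panel per step, 1 point per library (dark, EV; orange, KRT19) and a line at each group mean. The leading isozyme was the same in both groups in all 8 steps, and the mean shares of the leading isozymes differed most for PFKFB4, by -4.33 percentage points in KRT19.

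For the difference between the groups, a count model was fitted over all 14621 genes with enough counts (edgeR quasi-likelihood test, Benjamini-Hochberg adjustment over those genes). A log2 difference is KRT19 over EV, so a negative value is a lower level in KRT19. No member passed an adjusted p of 0.05 (0 of 37), where 1 gene of all those tested did (0.00684%), KRT19 itself. The lowest adjusted p of a member was 0.377, for PGK1. Under DESeq2 0 members passed either (0.0342% of all genes did), with 10 lower at an unadjusted p under 0.05 beside 1.78% of all genes. PGK1 passed with limma-voom and sample quality weights together, where 0.0547% of all genes passed. PGK1, LDHA, GPI and GYS1 passed with a looser filter on low counts, where 0.235% of all 30250 genes then tested passed. At an unadjusted p under 0.05, the study's threshold, 11 of 37 members (29.7%) were lower in KRT19 and 0 were higher, where 2.56% and 2.85% of all genes were lower and higher. The log2 difference was below 0 in 28 of 37 members (75.7%), beside 47.8% of all genes. The median was -0.11 over the members and 0.0051 over all genes. In 7 members (18.9%) every KRT19 library was below every EV library, beside 1.81% of all genes, and in 0 members every KRT19 library was above, beside 1.63%. Since the genes were chosen with this contrast known, nothing is read from these shares.

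Without KRT19 replicate 3 the members lower at an unadjusted p under 0.05 numbered 7, namely PGK1, LDHA, PDK1, GPI, PGAM1, GYS1 and SLC16A3 (7 of 37, beside 2.86% of all genes in that fit), and the median was -0.07. Without KRT19 replicate 1 they numbered 17 of 37, beside 3.41% of all genes in that fit. Without KRT19 replicate 3, 8 of 37 members (21.6%) and 3.17% of all genes were lower with no overlap.

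**Figure D3:**
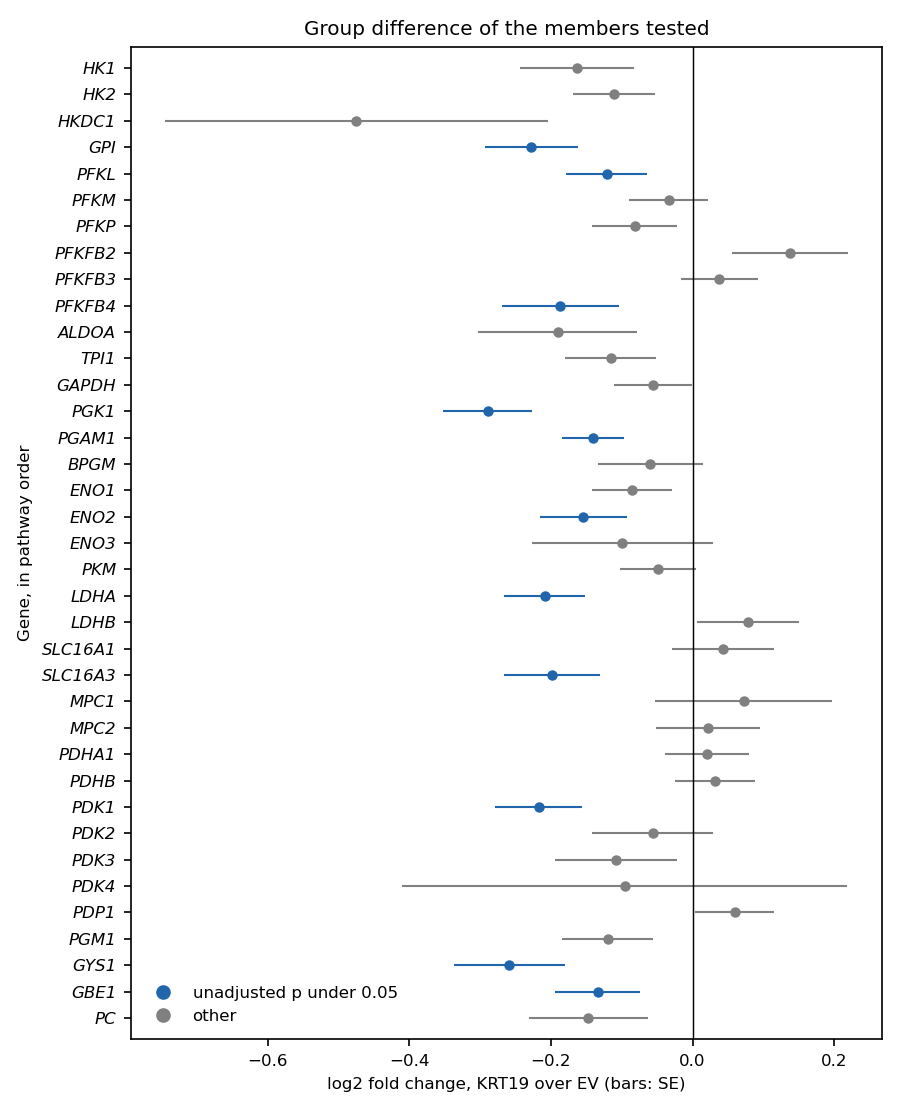
Log2 fold change of KRT19 over EV for the 37 members tested, in pathway order, with bars of 1 standard error from the edgeR fit. Blue marks the 11 members at an unadjusted p under 0.05, all to the left of 0, from PFKL at -0.12 to PGK1 at -0.29.

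From glucose to lactate, 6 of 18 members tested were lower at an unadjusted p under 0.05, 17 had a negative difference and the median was -0.12. Over all genes tested 2.56% were lower at that threshold and 47.8% were negative, and the members were chosen with this comparison known, so the count is a description. HK2 had 136, 129, 144 and 133 CPM in EV and 132, 131, 114 and 126 CPM in KRT19, with overlapping groups and a log2 difference of -0.11 ± 0.0578 (SE), or -0.064 without KRT19 replicate 3. HKDC1, a hexokinase relative, did not overlap (0.844 to 1.06 CPM in EV, 0.569 to 0.761 CPM in KRT19), but at this depth its difference of -0.47 ± 0.27 (SE) had an unadjusted p of 0.0968 in edgeR. GPI had 1489, 1507, 1578 and 1536 CPM in EV and 1440, 1391, 1094 and 1292 CPM in KRT19. Every KRT19 library was below every EV library, with a difference of -0.23 ± 0.066 (SE), or -0.15 without KRT19 replicate 3.

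PFKL had 168, 176, 190 and 179 CPM in EV and 172, 170, 148 and 166 CPM in KRT19, a difference of -0.12 ± 0.0572 (SE) with overlapping groups, or -0.074 without KRT19 replicate 3. PFKP, the leading subunit, had 414, 436, 487 and 450 CPM and 449, 429, 375 and 437 CPM, a difference of -0.08 ± 0.0605, or -0.029 without KRT19 replicate 3 and -0.038 without EV replicate 3. Only KRT19 replicate 3 lay below all EV libraries in PFKP. ALDOA had 13.7, 13.6, 15.3 and 13.4 CPM in EV and 14.4, 13.8, 9.90 and 11.1 CPM in KRT19, a difference of -0.19 ± 0.112, or -0.096 without KRT19 replicate 3. TPI1 had 1502, 1611, 1761 and 1666 CPM and 1648, 1534, 1305 and 1550 CPM, a difference of -0.12 ± 0.0644, or -0.052 without KRT19 replicate 3. KRT19 replicates 1 and 2 reached the EV range in both genes, and KRT19 replicate 4 did so in TPI1.

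GAPDH had 8868, 9203, 9953 and 9400 CPM in EV and 9765, 8874, 8133 and 9236 CPM in KRT19, a difference of -0.06 ± 0.055 (SE), or -0.0097 without KRT19 replicate 3, -0.024 without EV replicate 3 and -0.097 without KRT19 replicate 1. PGK1, the next enzyme, had 2503, 2563, 2775 and 2650 CPM in EV and 2369, 2198, 1840 and 2178 CPM in KRT19. The highest KRT19 library was below the lowest EV library, and the difference was -0.29 ± 0.063 (SE), a level 18.2% lower. It kept that direction when any library was left out, from -0.34 without KRT19 replicate 1 to -0.22 without KRT19 replicate 3. PGK1 (ENSG00000102144) is annotated on GRCh38 at chrX:77910739-78129296, plus strand.

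Set against its neighbours in the same library, PGK1 separated the groups clearly. These pairs were picked after their values had been seen and are descriptions only. The ratio of PGK1 to PKM per kilobase was 1.077, 1.094, 1.087 and 1.093 in the EV libraries and 0.944, 0.932, 0.877 and 0.925 in the KRT19 libraries. The spread within EV was 0.0076 (SD), while the group means were 1.088 and 0.919. PGK1 to GAPDH was 0.153, 0.151, 0.151 and 0.152 in EV and 0.131, 0.134, 0.122 and 0.128 in KRT19. Both ratios kept the groups apart with or without KRT19 replicate 3, whose values were the lowest.

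PGAM1, the phosphoglycerate mutase, had 997, 998, 1031 and 993 CPM in EV and 932, 948, 873 and 891 CPM in KRT19. The groups did not overlap and the difference was -0.14 ± 0.0438 (SE). BPGM, its bisphosphoglycerate-forming relative, had 21.3, 23.3, 23.4 and 22.3 CPM and 20.9, 20.7, 24.1 and 20.8 CPM, with -0.06 ± 0.074, or -0.12 without KRT19 replicate 3 and -0.040 without KRT19 replicate 2. ENO1 had 5041, 5382, 5762 and 5362 CPM in EV and 5450, 5125, 4535 and 5198 CPM in KRT19, overlapping, with -0.09 ± 0.0564, or -0.035 without KRT19 replicate 3 and -0.051 without EV replicate 3. ENO2 had 207, 218, 232 and 219 CPM and 212, 200, 172 and 204 CPM, where only KRT19 replicate 1 reached the EV range, with -0.15 ± 0.0615, or -0.093 without KRT19 replicate 3. PKM had 3612, 3643, 3971 and 3770 CPM in EV and 3903, 3668, 3265 and 3663 CPM in KRT19, a difference of -0.05 ± 0.0537. It was -0.0015 without KRT19 replicate 3, -0.020 without EV replicate 3 and -0.086 without KRT19 replicate 1.

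LDHA, the enzyme subunit at the end of the route, had 2068, 2096, 2209 and 2043 CPM in EV and 1937, 1888, 1586 and 1872 CPM in KRT19. The groups did not overlap, and the difference was -0.21 ± 0.0571 (SE), or -0.15 without KRT19 replicate 3. LDHB did not separate the groups, with means of 77.7 ± 8.43 CPM for EV and 82.1 ± 4.21 CPM for KRT19 (SD), with a difference of 0.08 ± 0.0717 (SE) that was 0.0031 without EV replicate 1 and 0.047 without KRT19 replicate 3. LDHA (ENSG00000134333) lies on GRCh38 at chr11:18394388-18408425, plus strand, and GPI (ENSG00000105220) at chr19:34359480-34402413, plus strand.

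In the PFKFB family, PFKFB4 had 80.7, 78.1, 84.1 and 83.0 CPM in EV and 82.0, 78.4, 58.2 and 67.9 CPM in KRT19. KRT19 replicates 1 and 2 lay within the EV range, and the difference was -0.19 ± 0.0829 (SE), or -0.10 without KRT19 replicate 3. PFKFB3 and PFKFB2 had positive differences of 0.04 ± 0.0544 and 0.14 ± 0.0817, and PFKFB2 had the highest value of all members tested. PFKFB3 was 0.016 without KRT19 replicate 2, and PFKFB2 was 0.092 without EV replicate 3.

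Of the transporters, SLC16A3 had 295, 305, 319 and 289 CPM in EV and 301, 266, 227 and 259 CPM in KRT19. KRT19 replicate 1 lay within the EV range and the other 3 below it, with a difference of -0.20 ± 0.0678 (SE), or -0.13 without KRT19 replicate 3. SLC16A1 was at 75.3 ± 5.03 and 77.4 ± 8.21 CPM (SD), with 0.04 ± 0.0721 (SE). Its sign turned to -0.035 without KRT19 replicate 3, and it was 0.0023 without EV replicate 4. MPC2 had 30.3, 26.1, 29.3 and 26.0 CPM in EV and 26.6, 27.0, 30.4 and 29.2 CPM in KRT19, with 0.02 ± 0.0733, or -0.015 without KRT19 replicate 3, and its sign turned under some other settings too. Of the 4 members in lactate and pyruvate transport, SLC16A3 was the 1 lower at an unadjusted p under 0.05, beside 2.56% of all genes. The positive signs of the others depended on single libraries, since MPC1 was also -0.0064 without KRT19 replicate 2.

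At the entry to mitochondria, PDK1, the kinase that holds pyruvate dehydrogenase inactive when oxygen is low, had 44.8, 42.6, 38.3 and 41.9 CPM in EV and 36.0, 35.6, 36.6 and 35.9 CPM in KRT19. The KRT19 libraries lay close together (SD 0.407 CPM) and all below the EV libraries. The difference was -0.22 ± 0.0613 (SE) and -0.22 without KRT19 replicate 3, so PDK1 did not rest on that library. PDK1 (ENSG00000152256) lies on GRCh38 at chr2:172555373-172608669, plus strand. PDK2 had 25.3, 29.5, 31.8 and 29.1 CPM and 31.3, 25.7, 24.9 and 29.5 CPM, with -0.06 ± 0.0854. Leaving out single libraries took PDK2 from -0.12 (without KRT19 replicate 1) to -0.0038 (without KRT19 replicate 3), and it was -0.0075 without EV replicate 3. PDK3 and PDK4 overlapped too. PDHA1 had 94.9, 104, 107 and 93.8 CPM in EV and 107, 103, 94.2 and 100 CPM in KRT19, with 0.02 ± 0.0597 (SE) and a sign that turned when some libraries were left out, and PDHB had 67.6 ± 3.38 and 69.1 ± 2.93 CPM (SD). PDP1 had 571, 569, 534 and 550 CPM in EV and 547, 547, 652 and 572 CPM in KRT19, with 0.06 ± 0.0557. That value came from KRT19 replicate 3, without which it was -0.0013.

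All 4 tested members of glycogen entry and gluconeogenesis had negative differences, with a median of -0.14, and 2 had an unadjusted p under 0.05, beside 47.8% and 2.56% of all genes. GYS1, the glycogen synthase of muscle and most other tissues, had 86.8, 88.2, 93.7 and 87.1 CPM in EV and 85.8, 75.9, 61.0 and 74.8 CPM in KRT19. The groups did not overlap, although KRT19 replicate 1 came within about 1 CPM of the lowest EV library. The difference was -0.26 ± 0.0787 (SE) with all libraries and -0.17 without KRT19 replicate 3. GBE1, the branching enzyme, had 69.9, 73.3, 67.0 and 70.2 CPM and 66.3, 69.0, 59.4 and 61.0 CPM, overlapping, with -0.13 ± 0.0601. PC, which makes oxaloacetate from pyruvate, had 35.1, 30.6, 40.3 and 34.2 CPM in EV and 35.0, 32.6, 28.0 and 31.1 CPM in KRT19, with -0.15 ± 0.0847, or -0.091 without KRT19 replicate 3 and -0.072 without EV replicate 3. PGM1, which feeds glucose into glycogen, had 67.9 ± 3.36 and 62.5 ± 4.93 CPM (SD), with -0.12 ± 0.0641 (SE), or -0.074 without KRT19 replicate 3.

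Library by library, the members were not lower to the same degree. The median over the 37 members of the log2 deviation from the EV mean was -0.028, -0.011, 0.074 and -0.0092 in the EV libraries. In the KRT19 libraries it was -0.0021, -0.065, -0.24 and -0.10 in replicates 1 to 4, so replicate 1 lay among the EV libraries and replicate 3 lay far below. The number of members below their EV mean was 20, 31, 27 and 29 of 37 in KRT19 replicates 1 to 4. In EV replicates 1 to 4 it was 25, 22, 7 and 20 of 37, so KRT19 replicate 1 lay within the EV range by this count too. In replicate 1, PGK1 (-0.15) and PDK1 were lower than in any EV library while GAPDH (0.063) and PKM (0.059) were above their EV mean. Whether a property of single libraries took part in these differences was not tested.

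**Figure D4:**
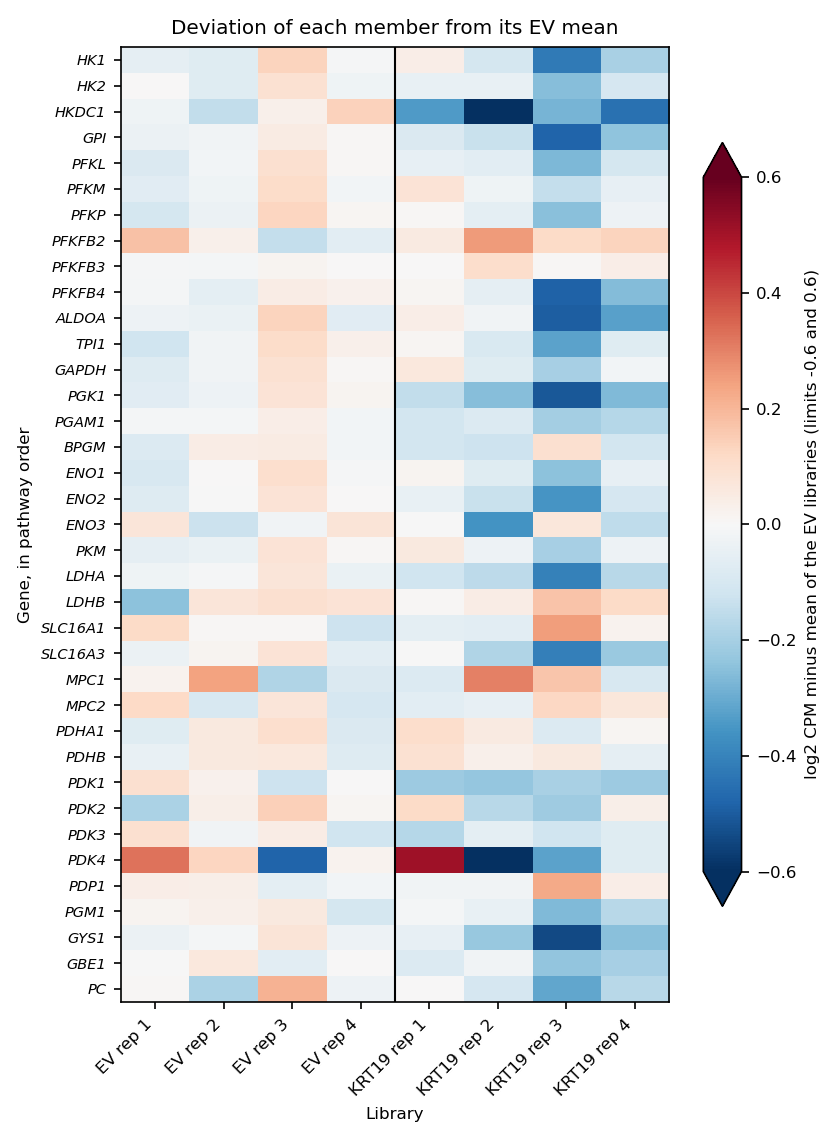
Deviation of each tested member from its mean in the EV libraries, in log2 CPM, with members in pathway order as rows and the 8 libraries as columns (blue, below the EV mean; red, above; colours end at -0.6 and 0.6). KRT19 replicate 3 carries the most blue. KRT19 replicate 1 is pale apart from single genes such as PDK4 (0.51), HKDC1 (-0.34), PDK1 (-0.22), PDK3 (-0.17) and PGK1 (-0.15). PDK4 and HKDC1 are at about 1 CPM. PDK4 varies widely within both groups, and HKDC1 is below its EV mean in every KRT19 library.

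Promoters are shown as a description of sequence. Hypoxia-inducible factors are known to switch on genes of glycolysis, and whether they took part in the group differences was not tested. These factors recognise the letters ACGTG or GCGTG, which overlap the E-box CACGTG that other factors use. RefSeq windows of 300 bases, from 250 bases before to 50 bases after a gene start (GRCh38.p14), were at hand for 38 of the 41 members, with 74 windows in all. Both strands were searched, so a CACGTG counts once on each strand. ACGTG was in 33.8% of the member windows and 21.4% of all 35116 windows, and GCGTG in 41.9% and 36.5%. Either was in 60.8% and 48.4%, and CACGTG in 10.8% and 7.26%. Taking for each gene the window nearest to its start in the count table, 5 of the 7 members below EV in every KRT19 library held either word, and so did 20 of the 27 other tested members with a window. The nearest window can lie away from the gene start of the count table. There PGK1 starts at 77910739, GPI at 34359480 and PGAM1 at 97426160. Their windows begin at 78103998, 34364742 and 97427568, so the matches describe these windows and not the listed starts. Such a match is a description of letters and not a binding site. The windows of PGK1, LDHA, GPI and GYS1 are given with these words in capitals on whichever strand they lie, that of PGAM1 as a member with lower counts and no match, and that of PDHB as a member with 6 matches whose log2 difference was 0.03 ± 0.057 (SE). The PDHB value was 0.0057 without EV replicate 4, 0.011 without KRT19 replicate 1 and 0.059 without KRT19 replicate 4. The windows cover chrX:78103998-78104297 (plus strand) for PGK1, chr11:18394313-18394612 (plus) for LDHA, chr19:34364742-34365041 (plus) for GPI, chr19:48993260-48993559 (minus) for GYS1, chr10:97427568-97427867 (plus) for PGAM1 and chr3:58433783-58434082 (minus) for PDHB, each written from 5′ to 3′.
PGK1: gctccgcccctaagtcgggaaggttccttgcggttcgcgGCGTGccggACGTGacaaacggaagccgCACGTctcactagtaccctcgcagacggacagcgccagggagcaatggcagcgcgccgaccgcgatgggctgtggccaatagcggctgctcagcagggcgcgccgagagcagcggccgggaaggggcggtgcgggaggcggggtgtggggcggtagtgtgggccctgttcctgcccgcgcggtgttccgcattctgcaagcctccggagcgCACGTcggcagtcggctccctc
LDHA: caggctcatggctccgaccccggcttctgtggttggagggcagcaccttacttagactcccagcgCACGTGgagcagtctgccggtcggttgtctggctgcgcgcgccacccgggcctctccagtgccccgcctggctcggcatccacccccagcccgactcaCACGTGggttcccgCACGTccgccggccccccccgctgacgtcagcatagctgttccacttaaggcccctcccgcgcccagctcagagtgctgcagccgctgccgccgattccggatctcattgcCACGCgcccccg
GPI: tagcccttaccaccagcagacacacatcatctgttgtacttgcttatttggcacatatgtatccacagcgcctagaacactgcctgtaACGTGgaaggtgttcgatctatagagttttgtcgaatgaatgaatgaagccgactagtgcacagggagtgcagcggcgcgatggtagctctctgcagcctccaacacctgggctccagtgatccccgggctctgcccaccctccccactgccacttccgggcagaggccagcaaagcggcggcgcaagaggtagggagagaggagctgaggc
GYS1: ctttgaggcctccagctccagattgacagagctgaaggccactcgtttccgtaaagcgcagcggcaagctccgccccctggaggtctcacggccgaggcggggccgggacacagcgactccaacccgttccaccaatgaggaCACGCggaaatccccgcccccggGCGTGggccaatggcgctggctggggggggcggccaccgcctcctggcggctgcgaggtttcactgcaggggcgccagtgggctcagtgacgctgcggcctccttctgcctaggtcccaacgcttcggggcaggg
PGAM1: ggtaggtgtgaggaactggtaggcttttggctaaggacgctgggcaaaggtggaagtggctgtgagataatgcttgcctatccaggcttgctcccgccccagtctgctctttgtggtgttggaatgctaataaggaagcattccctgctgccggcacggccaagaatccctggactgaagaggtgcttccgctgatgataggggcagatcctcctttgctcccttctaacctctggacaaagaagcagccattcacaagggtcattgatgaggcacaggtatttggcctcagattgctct
PDHB: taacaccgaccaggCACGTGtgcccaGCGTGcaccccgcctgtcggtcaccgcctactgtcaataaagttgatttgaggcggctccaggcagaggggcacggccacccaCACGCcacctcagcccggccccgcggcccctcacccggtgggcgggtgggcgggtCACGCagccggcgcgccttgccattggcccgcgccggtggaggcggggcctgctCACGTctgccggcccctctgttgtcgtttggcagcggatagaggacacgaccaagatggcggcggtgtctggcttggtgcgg

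The PGK1 window held 4 matches and the LDHA window 6, where LDHA carries the word CACGTG 2 times. The GPI window held 1 match, the GYS1 window 2 and the PGAM1 window 0. The nearest PDK1 window also held 0, although the PDK1 counts of the groups did not overlap, while the windows of PDHB and PDHA1 held 6 and 4. The absence of a match says only that these letters are not in this window.

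Genes of the same pathways outside the members were read from a list of 38, which holds the remaining subunits of pyruvate dehydrogenase and enzymes of glycogen breakdown, gluconeogenesis and rarely used isozymes. Of these, 19 were tested, 1 was lower at an unadjusted p under 0.05 (2.56% of all genes) and 0 were higher (2.85%), and the median log2 difference was 0.0007. The gene that was lower was LDHD, which oxidises D-lactate in mitochondria, with 3.66, 3.74, 3.95 and 3.65 CPM in EV and 2.96, 2.63, 2.52 and 3.37 CPM in KRT19. Its groups did not overlap and the difference was -0.39 ± 0.153 (SE). PYGB, a glycogen phosphorylase and the highest of the list per kilobase, had means of 361 ± 17.7 and 335 ± 22.9 CPM (SD), with -0.11 ± 0.0551 (SE), or -0.063 without KRT19 replicate 3. The pentose phosphate pathway branches off after hexokinase and supplies NADPH and ribose. All 7 of its listed genes were tested, 1 was lower at an unadjusted p under 0.05 (2.56% of all genes) and 0 were higher (2.85%), and the median was -0.03. PGLS, its lactonase, was the gene that was lower, with 58.4, 58.3, 58.5 and 60.1 CPM in EV and 59.8, 51.5, 47.3 and 54.5 CPM in KRT19, overlapping, and a difference of -0.14 ± 0.0663 (SE), or -0.089 without KRT19 replicate 3. PGD, the highest per kilobase at 112 RPKM over all libraries, had 339 ± 8.89 and 327 ± 22.6 CPM (SD) and -0.05 ± 0.0524 (SE), with -0.083 without KRT19 replicate 1, -0.034 without EV replicate 3 and -0.0057 without KRT19 replicate 3.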

How the data were processed

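The table deposited by the authors holds raw counts for 4 EV and 4 KRT19 libraries, with no normalization. TRIzol was used for the RNA and a NEBNext Ultra kit for the libraries. The submitters' processing notes list hg38, Bowtie 0.12.2, featureCounts 1.5.0-p3 and DESeq2, with no role or order. The handling of strand and of reads that match several genes is not given in the sources used here. All 58735 genes had the coordinates of GENCODE 29, and the gene length of the table equalled the merged exons.

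From these counts, 14621 genes kept by filterByExpr were compared with glmQLFit and glmQLFTest of edgeR 4.0.16 (R 4.3.3, limma 3.58.1) after TMM scaling, in a model of the group. Tests were two-sided. The standard error is the log2 fold change over the square root of F. Log2 CPM used a prior count of 2. The procedure was tested on simulated data with 200 genes changed by a log2 value of 1. It recovered 91.5% of them, with 13 false calls. All members tested differed by less than that, so this figure does not cover changes of their size.

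The members and all gene lists were chosen with earlier results of these data known. Values in every library are given for the leading gene of each step, for members at an unadjusted p under 0.05 and for members whose groups did not overlap. Of the other lists, genes at such a p and the highest in level are named. Sequence sharing was measured in 75-base words. Alternatives were other scalings, DESeq2 1.42.0, limma-voom with sample quality weights, other filters, GC and length trends, a replicate block, other lengths, added pseudogene counts and leaving out each library. Protein sequences were not used here.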

Additional observations from a re-analysis of the deposited data

Results flagged for a closer look

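The highest or lowest library was set against the other 3 in 66 groups of 4 libraries, for the levels of the 25 named members and the 8 leading isozyme shares, in EV and in KRT19. Dixon's 95% critical value was passed in 2 groups, where chance would pass about 3.3. PGAM1 was at 10.01 log2 CPM in EV replicate 3 against 9.956 to 9.963 in the other EV libraries (gap of 0.874 of the range). BPGM was at 4.596 log2 CPM in KRT19 replicate 3 against 4.380 to 4.393 in the other KRT19 libraries (gap of 0.938 of the range), and leaving that library out moved its log2 fold change from -0.06 to -0.12. BPGM was thus higher in the library in which most other members were lowest.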

How the results depend on the processing

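Of the 25 named members, 22 kept the sign of their log2 fold change in all 17 alternative fits, or in 16 for HKDC1, which the stricter filter removed. MPC2 turned to -0.0035 with GC and length trends removed and to -0.0051 with these and the replicate block, and leaving out one library gave -0.015 to 0.062. Leaving out one library gave -0.0091 to 0.055 for PDHA1 and -0.0013 to 0.086 for PDP1. Members past the adjusted threshold numbered 1 with limma-voom and quality weights together (0.0547% of all genes) and 4 with the looser filter (0.235%). Leaving out one library gave 7 to 17 members lower at an unadjusted p under 0.05 (7 without KRT19 replicate 3, beside 2.86% of all genes, and 17 without KRT19 replicate 1, beside 3.41%) and 0 to 1 higher (1 without EV replicate 1, beside 2.71%), and limma-voom with quality weights gave 1 higher (4.49% of all genes). Other genes of the pathway that were lower numbered 2 with upper-quartile scaling (3.24% of all genes), the looser filter (2.21%), GC and length trends removed (3.9%), and the latter with the block (3.16%), and 0 with DESeq2 (1.78%), limma-voom with quality weights (4.66%) and the stricter filter (2.59%). They numbered 0 to 2 with one library left out, beside 2.01% to 3.41% of all genes. Higher ones numbered 1 with the looser filter (2.94%) and 0 to 1 with one library left out (2.18% to 4.87%). Pentose phosphate genes that were lower numbered 0 with DESeq2 (1.78%) and the replicate block (1.53%). They numbered 0 to 1 with one library left out, beside 2.01% to 3.41% of all genes. The replicate number did not pair the libraries (residual correlations -0.11, -0.024, -0.16 and 0.057). With it as a block, 8 members were lower at an unadjusted p under 0.05 (1.53% of all genes), 12 with trends removed too (3.16%), and 0 passed the adjusted threshold.

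Shares over all libraries depended on gene length. By counts without length they were 55.9% for PFKP, 53.2% for PFKFB4, 95.9% for ALDOA, 96.1% for ENO1, 96.0% for LDHA, 78.6% for SLC16A3 and 34.9% for PDK2. With the longest transcript they were 53.1% for HK2, 67.3% for PFKP, 61.6% for PFKFB4, 96.4% for ENO1, 93.9% for LDHA, 76.9% for SLC16A3 and 58.6% for PDK2. Adding AC093512.2 to ALDOA, and leaving out ALDOA and LDHB, were chosen after seeing the data. They gave an ALDOA share of 95.5%, 11 members lower at an unadjusted p under 0.05 (beside 2.56% of all genes) and a median of -0.11. Neither ALDOA nor LDHB was among the members lower in the main fit, so leaving them out could not change that count. The shifts in share between lengths follow from the length used. Which length suits these libraries was not tested. Members at about 1 CPM, such as HKDC1 and PDK4, have too few counts for small differences to be seen.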
